A study of Mus musculus with 8 samples.

Results

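Chromatin accessibility was measured by ATAC-seq in 4 groups of sorted mouse bone marrow progenitors, and the strong regions whose signal lay at nearly the same level in all 4 groups were examined here. They were 2191 of the 61196 regions counted in every library. A region was strong if the lowest of its 4 group means was at least 30 CPM (the region's count scaled to a common total of counts in regions per library), which 6937 regions were. It was called level if its highest group mean was also at most 25% above its lowest, which 2191 of the 6937 (31.6%) were. The other 4746 strong regions, those over the ratio limit, are the main set beside which the level regions are described. Group means chose the regions, so their level signal is a description and no test of it is offered.

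The groups were named GMP-MoP, proNeu2, proNeu1 and cMoP by the labels, with 2 libraries in each. In common use cMoP stands for the common monocyte progenitor and proNeu1 and proNeu2 for early neutrophil progenitors, and the title of the series relates GMP-MoP to an origin from proNeu1. Each tube held 5000 sorted cells, and DNA was cut and tagged with a commercial Tn5 transposase kit. Sort gates, genotype, strain, age and treatment were not given in the sources used here. All libraries carry the label of bone marrow tissue. The labels number the libraries as biological replicates without saying that they came from separate animals, so the spread between them may be partly technical.

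ATAC-seq counts insertions of a transposase that reaches DNA where nucleosomes are absent or displaced, so the count in a region reads how open its DNA was over the cells of the library. Promoters of broadly used genes are often open in most cell types, and many of them lie in CpG islands, stretches of DNA rich in G and C that keep their CpG pairs because they are largely unmethylated. Distal elements such as enhancers, in contrast, tend to open and close with cell type.

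Of the 8 strongest level regions, all but that at Ripk2 held a transcription start site of the RefSeq set used here. The Ripk2 region overlapped an end of that gene. The DNA at 8 starts inside level regions is shown to let the base composition and motifs described below be seen directly. The first 6 windows belong to the level regions of highest mean signal that hold a whole window, and the last 2 were the first by the same order among genes of the functional lists described below. Each window runs from 250 bases before the start to 50 after it, was taken from RefSeq on GRCm38.p6 (mm10), and is written 5′ to 3′ along its own strand. Capitals mark GGGCGG or its reverse CCGCCC (the GC box), CCGGAAG or CTTCCGG (an ETS-type motif) and CCAAT or ATTGG. The windows were chr12:118301391-118301690 (minus strand) for Sp4, chr16:42875538-42875837 (minus) for 4932412D23Rik, chr3:135438616-135438915 (minus) for 4930539J05Rik, whose start shares a region with that of Ube2d3, chr17:17624440-17624739 (minus) for Lnpep, chr1:175692583-175692882 (minus) for Opn3, chr1:88277530-88277829 (minus) for Hjurp, chr12:91589600-91589899 (minus) for Gtf2a1 and chr6:70844265-70844564 (plus) for Eif2ak3.
Sp4: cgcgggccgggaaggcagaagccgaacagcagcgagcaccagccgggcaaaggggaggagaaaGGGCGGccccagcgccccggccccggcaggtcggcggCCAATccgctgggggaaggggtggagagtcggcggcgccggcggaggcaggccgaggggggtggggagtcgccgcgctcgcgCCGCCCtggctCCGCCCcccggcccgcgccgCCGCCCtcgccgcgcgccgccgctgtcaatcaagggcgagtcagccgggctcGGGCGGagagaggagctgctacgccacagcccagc
4932412D23Rik: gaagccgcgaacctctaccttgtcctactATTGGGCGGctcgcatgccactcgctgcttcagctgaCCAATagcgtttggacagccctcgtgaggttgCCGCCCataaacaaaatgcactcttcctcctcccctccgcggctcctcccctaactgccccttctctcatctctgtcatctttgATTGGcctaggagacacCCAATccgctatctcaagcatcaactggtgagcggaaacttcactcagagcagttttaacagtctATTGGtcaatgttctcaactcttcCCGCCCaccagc
4930539J05Rik: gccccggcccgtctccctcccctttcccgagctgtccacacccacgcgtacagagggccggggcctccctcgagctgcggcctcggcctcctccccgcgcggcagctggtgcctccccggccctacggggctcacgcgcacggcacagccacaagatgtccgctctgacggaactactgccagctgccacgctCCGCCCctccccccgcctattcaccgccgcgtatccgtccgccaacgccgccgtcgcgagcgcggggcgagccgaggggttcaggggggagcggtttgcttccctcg
Lnpep: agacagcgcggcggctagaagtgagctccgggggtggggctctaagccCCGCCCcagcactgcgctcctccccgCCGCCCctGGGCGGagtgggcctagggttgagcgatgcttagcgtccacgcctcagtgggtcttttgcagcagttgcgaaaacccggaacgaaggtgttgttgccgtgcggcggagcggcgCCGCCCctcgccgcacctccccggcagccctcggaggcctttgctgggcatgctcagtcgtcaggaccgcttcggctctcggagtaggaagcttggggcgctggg
Opn3: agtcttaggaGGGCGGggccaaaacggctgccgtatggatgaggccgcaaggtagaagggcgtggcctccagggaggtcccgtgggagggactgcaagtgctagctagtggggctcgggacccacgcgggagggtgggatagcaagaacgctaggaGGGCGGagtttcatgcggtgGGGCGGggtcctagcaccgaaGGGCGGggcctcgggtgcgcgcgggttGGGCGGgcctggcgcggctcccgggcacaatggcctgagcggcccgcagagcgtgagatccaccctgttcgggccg
Hjurp: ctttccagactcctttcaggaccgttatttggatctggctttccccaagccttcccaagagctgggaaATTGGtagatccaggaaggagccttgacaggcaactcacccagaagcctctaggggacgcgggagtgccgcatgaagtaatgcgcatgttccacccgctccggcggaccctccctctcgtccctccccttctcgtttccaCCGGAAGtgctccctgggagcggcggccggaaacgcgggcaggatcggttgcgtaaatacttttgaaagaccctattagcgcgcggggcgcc
Gtf2a1: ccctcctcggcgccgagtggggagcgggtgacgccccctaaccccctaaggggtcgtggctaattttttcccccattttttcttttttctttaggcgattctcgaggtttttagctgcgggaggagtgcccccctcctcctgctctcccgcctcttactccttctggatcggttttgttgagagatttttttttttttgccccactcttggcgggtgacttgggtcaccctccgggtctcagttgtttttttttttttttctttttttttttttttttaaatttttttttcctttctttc
Eif2ak3: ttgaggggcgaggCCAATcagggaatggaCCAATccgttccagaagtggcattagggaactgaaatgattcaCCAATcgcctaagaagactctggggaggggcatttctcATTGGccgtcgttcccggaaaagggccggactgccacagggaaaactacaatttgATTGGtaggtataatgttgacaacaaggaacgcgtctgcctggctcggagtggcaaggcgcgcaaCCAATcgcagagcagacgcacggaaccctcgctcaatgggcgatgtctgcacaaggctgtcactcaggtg

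These windows differed from one another in composition. The GC share was 78.7% at Sp4, 74.0% at 4930539J05Rik and 70.0% at Opn3, and 47.0% at Gtf2a1, whose window holds long runs of T. The GC box stood 5 times at Sp4 and 5 times at Opn3, 4 times at Lnpep, 3 times at 4932412D23Rik and once at 4930539J05Rik. CCAAT stood 6 times at Eif2ak3 and 5 times at 4932412D23Rik, and the ETS-type motif once, at Hjurp. The Gtf2a1 window held none of the 3 motifs.

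The 8 libraries held between 1388525 and 1907810 counts in regions, so the 30 CPM floor stood for 41.7 to 57.2 counts, and the level regions took 14.5 to 16.0% of all counts in each library. A level region had a median of 85 to 116 counts per library. Over these regions the difference between the proNeu2 libraries was close to sampling noise, at a chi-square of 1.01 for each degree of freedom, against 1.09 in GMP-MoP, 1.21 in proNeu1 and 1.12 in cMoP. Over all regions of at least 80 summed counts in a group it was 1.01 in proNeu2, against 1.38 in GMP-MoP, 1.31 in proNeu1 and 1.30 in cMoP. The proNeu2 libraries were kept as 2 samples because the labels number them as 2 biological replicates. Whether they are independent was not tested. The 32 regions linked to 10 neutrophil progenitor markers summed to 537 and 583 CPM in GMP-MoP, 1130.0 and 1145 in proNeu2, 964 and 1034 in proNeu1, and 455 and 445 in cMoP. The 38 regions linked to 6 monocyte progenitor markers summed to 586 and 541 CPM in GMP-MoP, 425 and 416 in proNeu2, 462 and 438 in proNeu1, and 643 and 630.0 in cMoP. Single monocyte markers did not all follow their sum. Irf8, Csf1r, Klf4 and Ccr2 were highest in cMoP, whereas Ly6c2 was highest in proNeu1 and Cx3cr1 in proNeu2. Among the neutrophil markers Ltf also departed from its sum, with 84.0 CPM in proNeu1, 72.3 in proNeu2, 61.5 in cMoP and 45.2 in GMP-MoP. Each of the other neutrophil markers was highest in proNeu2. Of the regions of both lists, 1 monocyte and 3 neutrophil marker regions were strong, so few could be level, and none was. Marker regions of lymphoid cells (B, T and NK), of red cell and megakaryocyte precursors and of mast cells with other granulocytes summed to at most 109 CPM per list in any library. Each of these lists held at most 14 regions, against 38 and 32 for the monocyte and neutrophil lists. Their sums are therefore not comparable in size with those above, and low sums do not show that such cells were absent. Of the regions of these lists 1, at Klf1, was strong and was over the limit. Less open DNA per cell and fewer cells with the region open cannot be told apart in such bulk libraries.

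**Figure D1:**
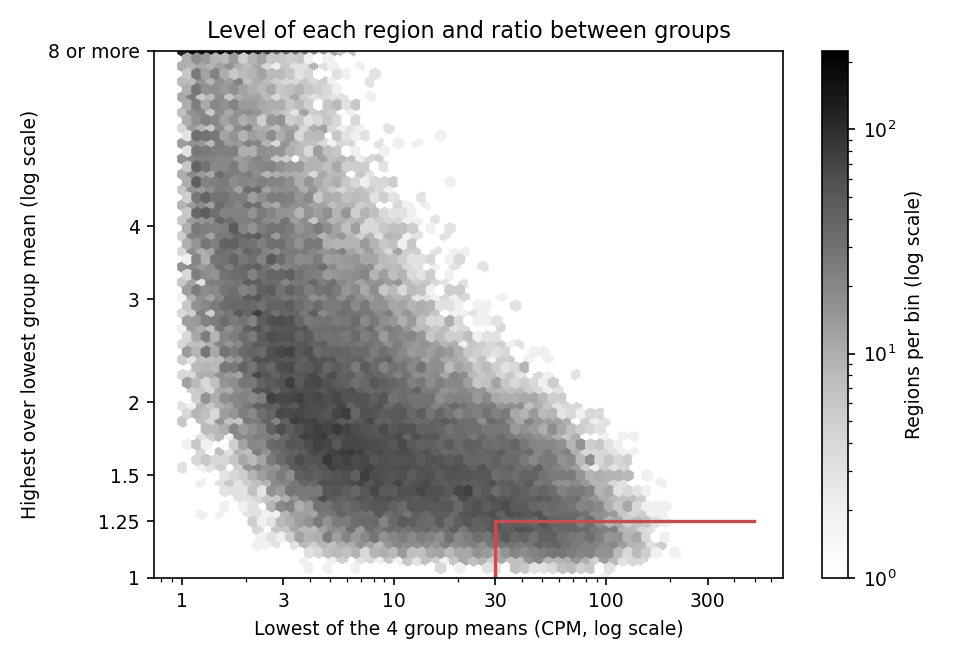
Lowest of the 4 group means in CPM (x axis, log scale) against the ratio of the highest to the lowest group mean (y axis, log scale) for all regions with a lowest mean above 0, shaded by the number of regions per bin. The red lines mark the 30 CPM floor and the ratio limit, and the 2191 level regions lie to the right of the first and under the second; ratios are larger and more spread among regions of low signal.

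The signal of the 8 strongest level regions was read in each library. The region over the start of Sp4 (chr12:118300860-118302680), a zinc finger transcription factor of the family that binds GC boxes, had 335 and 311 CPM in GMP-MoP, 309.6 and 304 CPM in proNeu2, 360.2 and 349 CPM in proNeu1 and 303 and 268 CPM in cMoP. Its proNeu1 libraries were the highest and its cMoP libraries the lowest, and no library of one group lay within the range of another. The region at 4932412D23Rik, which overlaps the gene of the zinc finger repressor Zbtb20 (chr16:42874722-42876485), had 298 and 285 CPM in GMP-MoP, 296 and 284 CPM in proNeu2, 311 and 293 CPM in proNeu1 and 279.9 and 273 CPM in cMoP. Here GMP-MoP and proNeu2 overlapped, proNeu1 overlapped both, and both cMoP libraries were below all others. The region at Ripk2 (chr4:16163141-16164502), a kinase that signals for the NOD receptors, which sense bacterial cell wall, had 282 and 275 CPM in GMP-MoP, 264 and 259 CPM in proNeu2, 286 and 275 CPM in proNeu1 and 243 and 259.9 CPM in cMoP. The GMP-MoP and proNeu1 libraries overlapped and were the highest.

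Ube2d3, a ubiquitin-conjugating enzyme, had 264 and 238 CPM in GMP-MoP, 267 and 266 CPM in proNeu2, 276 and 295 CPM in proNeu1 and 255 and 222 CPM in cMoP at chr3:135437679-135439787, with proNeu1 above all others. Lnpep, the insulin-regulated aminopeptidase, had 228 and 250.01 CPM in GMP-MoP, 236 and 226 CPM in proNeu2, 250.01 and 249 CPM in proNeu1 and 206 and 214 CPM in cMoP at chr17:17624097-17625924, with cMoP the lowest. Opn3, a non-visual opsin, had 264 and 216 CPM in GMP-MoP, 248 and 234 CPM in proNeu2, 256 and 236 CPM in proNeu1 and 189 and 208 CPM in cMoP at chr1:175692122-175693490. Again both cMoP libraries were below the other 6, which overlapped. Hjurp, the chaperone that loads the centromeric histone CENP-A, had 245 and 229 CPM in GMP-MoP, 199.9 and 234 CPM in proNeu2, 241 and 234 CPM in proNeu1 and 232 and 232 CPM in cMoP at chr1:88276835-88278181, and its widest gap was between its 2 proNeu2 libraries. Gsk3b, a kinase of the Wnt and insulin pathways, had 225 and 199.9 CPM in GMP-MoP, 236 and 254 CPM in proNeu2, 236 and 218 CPM in proNeu1 and 212 and 197 CPM in cMoP at chr16:38088317-38089882, with proNeu2 the highest and overlapping proNeu1.

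**Figure D2:**
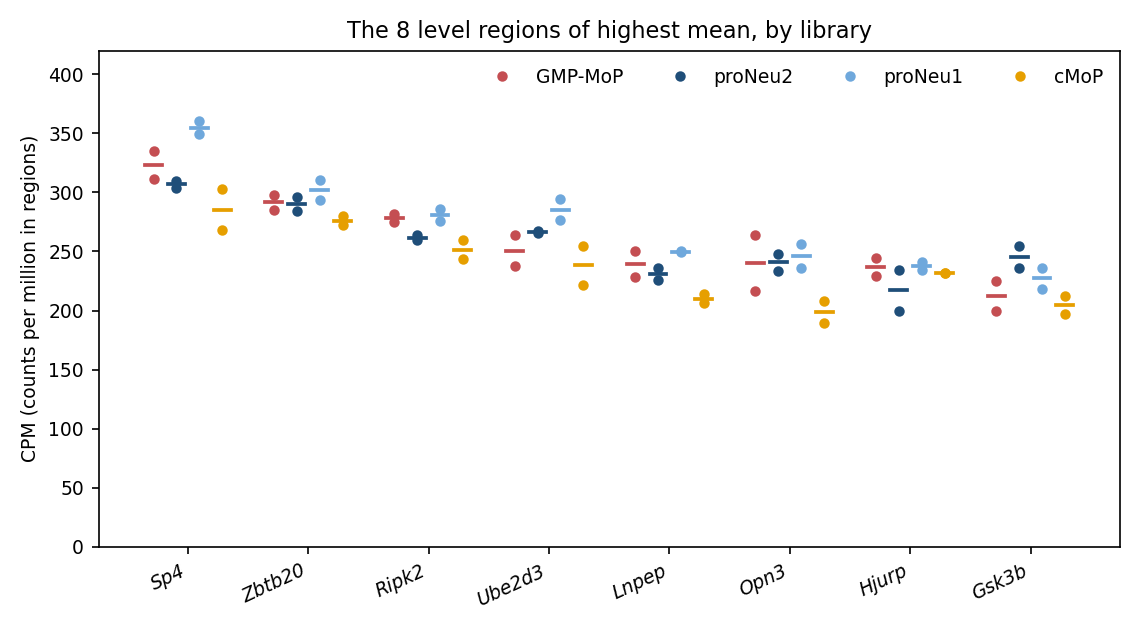
CPM in each library (points) and the mean of the 2 libraries (short lines) for the 8 level regions of highest mean, coloured by group, with the y axis from 0. The points of a region differ by little against their height, and cMoP has the lowest mean in 7 of the 8 regions, the exception being Hjurp, where proNeu2 has it.

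The most even regions had group means within a few percent of each other. Tpp2, which encodes the large cytosolic protease tripeptidyl peptidase II, had 107 and 99.1 CPM in GMP-MoP, 98.5 and 105 CPM in proNeu2, 102 and 102 CPM in proNeu1 and 98.02 and 108 CPM in cMoP at chr1:43933205-43934524, a ratio of highest to lowest mean of 1.01. Gdi2, which keeps Rab GTPases soluble, had 96.5 and 110.1 CPM in GMP-MoP, 108 and 96.9 CPM in proNeu2, 116 and 92.2 CPM in proNeu1 and 102 and 105 CPM in cMoP at chr13:3537397-3538796. Nap1l1, a histone chaperone, had 74.2 and 64.1 CPM in GMP-MoP, 71.7 and 68.05 CPM in proNeu2, 71.2 and 65.5 CPM in proNeu1 and 68.1 and 71.2 CPM in cMoP at chr10:111472696-111473990. In all of these every pair of groups overlapped.

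The other regions of this kind had lower signal. Snapc1, a subunit of the complex that starts transcription of small nuclear RNAs, had 35.3 and 33.2 CPM in GMP-MoP, 34.2 and 34.9 CPM in proNeu2, 36.9 and 31.8 CPM in proNeu1 and 42.98 and 26.9 CPM in cMoP at chr12:73964056-73965190, so its 2 cMoP libraries lay further apart than any group means. The region at Akip1 (chr7:109703163-109704422) had 52.6 and 44.9 CPM in GMP-MoP, 52.6 and 42.9 CPM in proNeu2, 48.8 and 47.7 CPM in proNeu1 and 47.7 and 49.6 CPM in cMoP. The Tlr8 region, 11121 bp from the gene of this endosomal RNA sensor, had 46.1 and 39.05 CPM in GMP-MoP, 47.03 and 38.6 CPM in proNeu2, 42.2 and 41.98 CPM in proNeu1 and 44.6 and 40.6 CPM in cMoP at chrX:167229026-167230002 and was the only one of the 6 most even regions outside a gene.

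The counts limit how precisely each ratio is known. Over the level regions the ratio of highest to lowest mean had a median of 1.17, and the 95% interval from the counts held 1 in 1672 of them (76.3%). The median interval ran from 0.955 to 1.43. For 508 level regions (23.2%) its upper bound was above 1.5, so for these the counts do not set aside a difference of that size. Such intervals cover counting error only. The rule capped these same ratios, so neither an interval that holds 1 nor an upper bound under 1.5 gives support for a level signal.

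Regions on either side of the rule's lines had near-equal values. Just inside the floor, Trim44 had group means of 30.6 ± 8.65 CPM in GMP-MoP, 31.1 ± 1.16 CPM in proNeu2, 30.1 ± 1.52 CPM in proNeu1 and 32.1 ± 0.61 CPM in cMoP (SD, n = 2). Just outside it, Timm17a, a subunit of the mitochondrial import channel, had 29.9 ± 3.55 CPM in GMP-MoP, 37.2 ± 1.14 CPM in proNeu2, 34.4 ± 3.63 CPM in proNeu1 and 31.01 ± 3.59 CPM in cMoP. Just inside the ratio limit, Suco had 163 ± 9.33 CPM in GMP-MoP, 172 ± 12.97 CPM in proNeu2, 189 ± 6.67 CPM in proNeu1 and 151 ± 5.81 CPM in cMoP. Just outside it, Srsf11, a splicing factor, had 65.4 ± 4.29 CPM in GMP-MoP, 63.8 ± 1.61 CPM in proNeu2, 55.5 ± 12.9 CPM in proNeu1 and 52.3 ± 1.33 CPM in cMoP. Within each of these pairs the distance to the line was smaller than the SD between the 2 libraries of at least 1 group.

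The rule was also applied to the 4 libraries of 1 replicate number and the result read in the 4 of the other. Of the 1802 regions that were level by the libraries numbered 1, 642 (35.6%) were level by those numbered 2, and 90.7% were strong there. Of the 5123 strong regions over the limit by the libraries numbered 1, 719 (14.0%) were level by those numbered 2. In the other direction 642 of 1469 (43.7%) were level again, beside 993 of 5051 (19.7%). The median ratio of the regions chosen by the libraries numbered 1 was 1.18 where they were chosen and 1.31 in the other libraries. Most regions that met the limit in 1 set of libraries did not meet it in the other, and regions chosen as level met it more often than those over the limit.

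Libraries of 1 group differed by a median of 0.165 on the log2 scale over level regions, 0.184 over strong regions beyond the limit and 0.453 over all regions. The last value is not at like counts, as the median region had 11 to 18 counts per library over all regions and 85 to 116 over level regions. The smallest replicate difference was at the region shared by the ends of Chchd7 and Plag1 (chr4:3938112-3939364), with 191 and 191 CPM in GMP-MoP, 179 and 177 CPM in proNeu2, 185 and 186 CPM in proNeu1 and 157 and 163 CPM in cMoP. Its libraries paired so tightly that all 4 groups were apart within a level region. At Slc1a2, the glutamate transporter gene, an intragenic region (chr2:102743824-102746267) had 39.6 and 48.95 CPM in GMP-MoP, 27.4 and 46.6 CPM in proNeu2, 27.7 and 46.4 CPM in proNeu1 and 38.3 and 33.2 CPM in cMoP, the largest replicate difference among level regions. In GMP-MoP, proNeu2 and proNeu1 its replicates lay further apart than its highest and lowest group means, and in cMoP they lay closer.

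No group was far from the others over the level regions, as the rule required. The median level region had 60.6 CPM in GMP-MoP, 60.6 in proNeu2, 62.0 in proNeu1 and 59.1 in cMoP. The highest mean was in GMP-MoP at 579 of them, in proNeu2 at 564, in proNeu1 at 757 and in cMoP at 291. The lowest mean was in GMP-MoP at 471, in proNeu2 at 541, in proNeu1 at 277 and in cMoP at 902. The strong regions over the limit leaned much further to one side, with 2562 highest in proNeu2 and 2695 lowest in cMoP. Their median log2 ratio over cMoP was 0.09 in GMP-MoP, 0.44 in proNeu2 and 0.38 in proNeu1, whereas that of the level regions was 0.04, 0.05 and 0.08 for the same groups.

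Between pairs of groups the share of the 6937 strong regions within 25% of each other separated into a close and a distant set. It was 92.5% for proNeu2 and proNeu1 and 90.0% for GMP-MoP and cMoP. It was 62.8% for GMP-MoP and proNeu1, 54.0% for proNeu1 and cMoP, 52.4% for GMP-MoP and proNeu2, and 47.2% for proNeu2 and cMoP. The groups are shared between these pairs. The limit was exceeded most often between a proNeu group and GMP-MoP or cMoP.

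The whole table was tested for any difference among the 4 groups with the edgeR quasi-likelihood F test on TMM-scaled counts, Benjamini-Hochberg adjusted over 47506 regions. At an adjusted p under 0.05 it called 52.4% of the tested regions and 131 of the 2191 level regions (5.98%). Because the rule used the same group means, nothing is read from the second count. It moved when single libraries were left out, as given below beside the calls over all regions. The 131 had their highest mean in proNeu2 (75) or proNeu1 (56) and their lowest in GMP-MoP (37) or cMoP (94). TMM scaling raised both proNeu groups over cMoP after the rule had capped the ratios, so nothing is read from these directions. With libraries scaled by total counts over the tested regions, 51.6% of the tested regions and 8 of the level regions were called. The rule scaled by totals over all regions. Among the 8 were regions at Azi2 and Zcwpw2, at Pcna and Cds2, at Dcaf6 and Mpc2, and at Opn3, Sp4, Mfap3l and Ccng2, named after their values were seen. The likelihood ratio test of DESeq2 called 21.0% of regions and 6 level ones. TMM scaling moves every log2 ratio over cMoP by 0.01 in GMP-MoP, 0.19 in proNeu2 and 0.14 in proNeu1, which is a large part of the ratio limit. Under it 1445 regions were level, of which 1067 were shared with the rule as given (48.7% of its 2191 and 73.8% of the 1445). Which regions count as level thus depended on how libraries were scaled to each other.

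Level regions were promoter regions for the most part, and in this they were like the other strong regions. Within 1 kb of either end of a protein-coding gene lay 1676 of them (76.5%), against 76.0% of the strong regions over the limit and 21.1% of all regions. A further 311 (14.2%) were inside genes and 204 (9.31%) outside, against 14.5% inside and 9.48% outside among the strong regions over the limit. Their median width was 1355 bp, against 1370 bp over the limit and 832 bp over all regions, and wide regions collect more counts. A RefSeq start site lay inside 1507 of the 2094 level regions outside chromosome 18 (71.97%), against 71.8% of the strong regions over the limit and 17.5% of all regions. Starts on both strands were held by 340 of these 1507 (22.6%), against 22.0% of the strong regions over the limit and 15.2% of all regions that held a start. The 97 level regions of chromosome 18 were not used for start sites, as the set of starts had none there. Starts of other genes may also be missing from this set, so the start shares may be too low. Within strong regions, position relative to genes did not separate level regions from the others by more than 1 percentage point in any of these classes.

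The promoter windows inside the level regions showed the composition of CpG islands. Over 1493 windows the median GC share was 63.0%, against 64.0% in 3312 windows of strong regions over the limit and 52.7% in all 32851 windows. CpG pairs reached 0.829 of the number that the C and G content gives in the median level window, against 0.834 in windows over the limit and 0.384 in all. Windows with at least 0.6 of that number were 86.4% of the level ones, 87.0% of those over the limit and 35.8% of all.

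Motifs were searched as exact letters on both strands, and none of the 8 searched lies inside another. The GC box GGGCGG stood in 73.2% of the level windows, 77.0% of those over the limit and 35.7% of all. The ETS-type CCGGAAG stood in 21.5% of the level windows, 20.7% of those over the limit and 8.86% of all. GCATGCG, a core of the motif of the factor NRF1, stood in 7.64% of the level windows, 7.94% of those over the limit and 3.58% of all. TGACGT, a cyclic AMP response element core, stood in 13.8% of the level windows, 14.3% of those over the limit and 7.51% of all. Each of these was more common in windows of strong regions than over all windows, and close between both strong sets. CCAAT stood in 44.3% of the level windows, 43.4% of those over the limit and 37.4% of all, and the E-box CACGTG in 10.2% of the level windows, 11.02% of those over the limit and 7.15% of all. TATAAA was less common in level windows (5.69%) and in those over the limit (4.92%) than in all windows (13.6%). TGAGTCA, the AP-1 motif, stood in 2.95% of the level windows, 2.26% of those over the limit and 5.20% of all. These counts describe letters in the windows and not binding.

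Among the properties compared here, gene density around a region was the one in which level regions differed most from other strong regions. It was taken as the number of protein-coding genes within a window of 1 Mb centred on the region, and had a median of 10 around level regions, 15 around strong regions over the limit and 10 around all regions. With 0 to 5 genes, 414 of 956 strong regions were level (43.3%, 95% exact binomial interval 40.1 to 46.5%). The share was 43.3% of 1799 with 6 to 10 genes, 29.4% of 2112 with 11 to 20, 21.4% of 978 with 21 to 30 and 16.5% of 891 with 31 to 50. With 51 or more genes 21 of 201 were level (10.4%, 6.58 to 15.5%). Over all windows of more than 30 genes the share was 15.4%, and 8.05% with TMM scaling. The intervals take each strong region as an independent draw, which neighbouring regions are not. They cover neither the spread between libraries nor the uncertainty of calling a region level. With single libraries left out, the share in windows of 5 or fewer genes ran from 34.4 to 42.3%.

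Gene-poor surroundings had the higher shares whether or not a region held a start site of the RefSeq set used here. Among regions that held one the share was 46.6% with 0 to 5 genes, 44.4% with 6 to 10 and 11.1% with 51 or more. Among those that held none it was 36.3% with 0 to 5, 38.3% with 6 to 10 and 8.33% with 51 or more. The shift between groups ran along with density. The median log2 ratio of proNeu2 over cMoP in strong regions was -0.02 with 0 to 5 genes, 0.13 with 6 to 10, 0.31 with 11 to 20, 0.45 with 21 to 30, 0.53 with 31 to 50 and 0.75 with 51 or more. For proNeu1 over cMoP it was 0.09 at the low end and 0.62 at the high end, and for GMP-MoP over cMoP 0.08 and 0.14. Across the 6937 strong regions the Spearman correlation of gene number with the log2 ratio was 0.456 for proNeu2, 0.378 for proNeu1 and 0.047 for GMP-MoP, all over the same cMoP libraries. Its correlation with the ratio of highest to lowest mean was 0.323, that of the replicate difference 0.152, that of width 0.052 and that of mean signal 0.009.

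**Figure D3:**
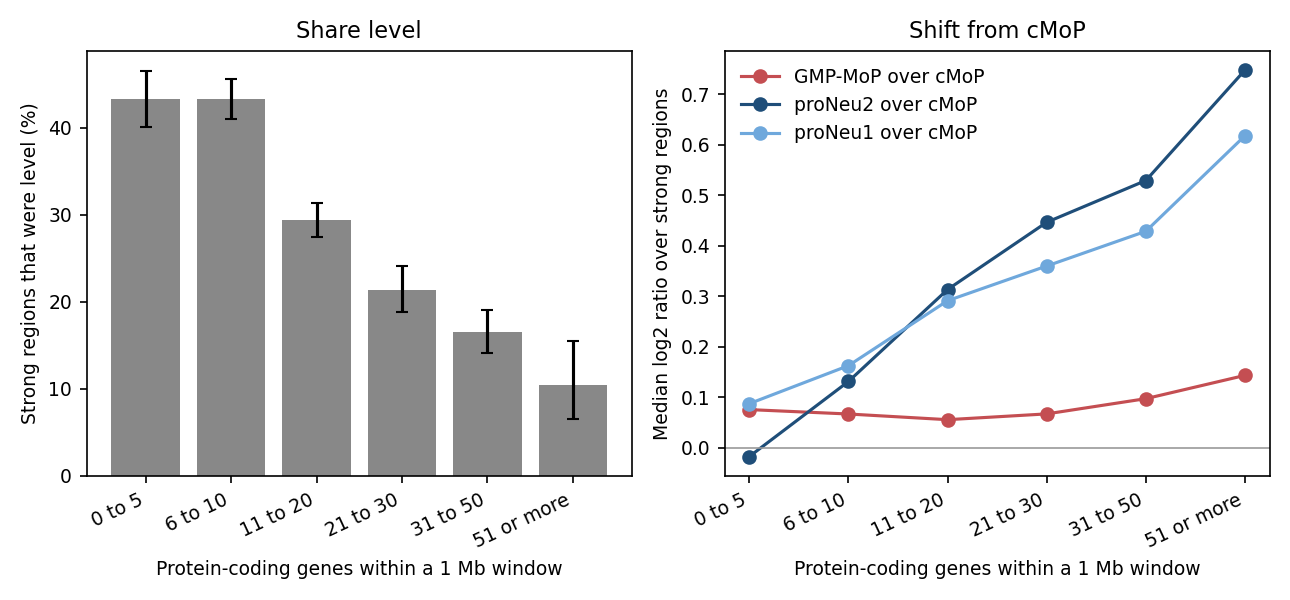
Left, the percent of strong regions that were level (bars, from 0) by number of protein-coding genes in the 1 Mb window, with 95% exact binomial intervals that take regions as independent and leave out the spread between libraries. Right, the median log2 ratio of each group over cMoP in the same strong regions; the share is 43.3% in the first bar and 10.4% in the last, while the median is 0.75 for proNeu2 and 0.14 for GMP-MoP at the most gene-dense end.

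The libraries differed in the same way over all their counts. Regions in windows of over 30 genes took 12.2 and 11.2% of the counts of the GMP-MoP libraries, 15.2 and 15.03% in proNeu2, 13.8 and 14.4% in proNeu1 and 11.4 and 10.8% in cMoP. Regions in windows of 5 or fewer genes took 20.2 and 22.0% in GMP-MoP, 15.7 and 15.9% in proNeu2, 17.8 and 16.9% in proNeu1 and 21.0 and 22.2% in cMoP. Both proNeu groups therefore had more of their signal in gene-dense DNA, and no library of these groups overlapped those of GMP-MoP or cMoP. The part of this whole-library difference in the share of level regions was not tested. Other regions within 250 kb of a level region had a median log2 ratio of proNeu2 over cMoP, with 1 CPM added, of -0.31 (median over level regions), against 0.07 around the strong regions over the limit. The median of the neighbours was above 0 for 26.0% of level regions and for 55.1% of the strong regions over the limit.

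Chromosomes held different shares of level regions. Chromosome X had the highest, with 86 of 166 strong regions level (51.8%, 43.9 to 59.6%), followed by chromosomes 18 (47.3%) and 3 (46.9%). Chromosome 19 had the lowest, with 16 of 172 (9.30%, 5.41 to 14.7%), followed by 11 (16.5%) and 15 (20.2%). Within chromosomes, strong regions with 10 or fewer genes around them were level more often than those with over 20 in 18 of the 19 chromosomes that had at least 20 regions of each kind. On chromosome 11 the share was 40.4% in sparse and 7.80% in dense surroundings, and on chromosome 15 it was 36.9% in sparse and 5.50% in dense surroundings. On chromosome 19 both were low, at 17.2% in sparse and 3.896% in dense surroundings. The exception was chromosome 13, with 37.0% of sparse and 60.4% of dense regions level.

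**Figure D4:**
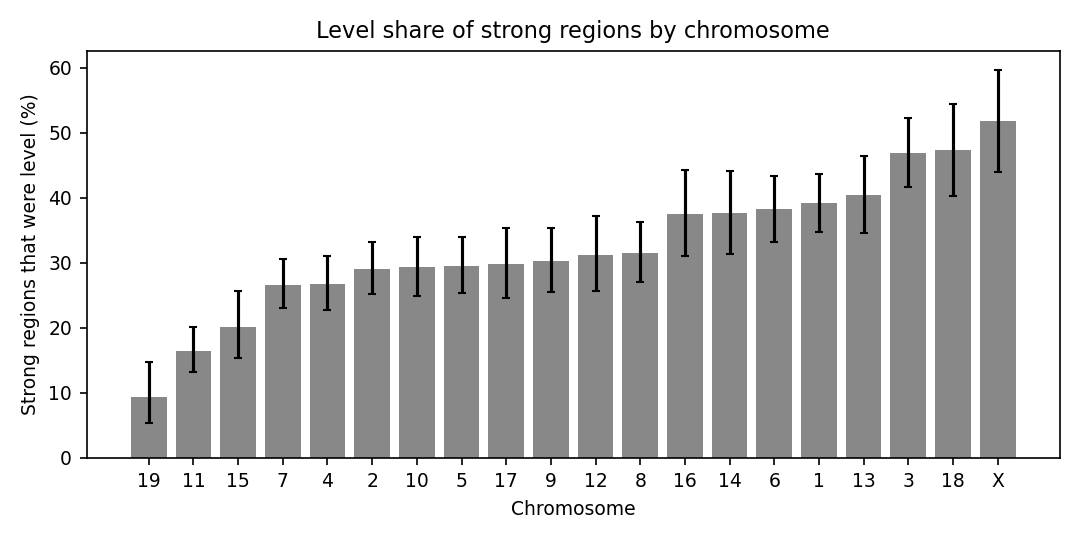
Percent of strong regions that were level by chromosome (bars, from 0, in order of the share), with 95% exact binomial intervals that take regions as independent and leave out the spread between libraries. The share runs from 9.30% on chromosome 19 to 51.8% on chromosome X.

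The dense regions of chromosome 13 were in large part histone gene clusters. These replication-dependent genes, which are transcribed in S phase, stand close together and many are near-identical copies, so reads may be split or lost among them. Of 34 strong regions linked to histone genes, 21 were level (61.8%, 43.6 to 77.8%). Of the 31 in windows of over 30 genes, 20 were level (64.5%), against 148 of 1061 other strong regions in such windows (13.9%). On chromosome 13 the numbers were 20 of 26 (76.9%), against 12 of 27 other regions with over 20 genes (44.4%).

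The region shared by H1f4, a linker histone gene, and H2bc6 (chr13:23620755-23622992) had 85.7 and 80.4 CPM in GMP-MoP, 92.4 and 90.1 CPM in proNeu2, 107 and 75.7 CPM in proNeu1 and 96.97 and 76.97 CPM in cMoP, with 48 genes in its window. All groups but GMP-MoP and proNeu2 overlapped. The region at H4c8, an H4 gene (chr13:23530645-23531916), had 82.8 and 85.7 CPM in GMP-MoP, 83.99 and 83.99 CPM in proNeu2, 73.9 and 76.3 CPM in proNeu1 and 72.9 and 63.8 CPM in cMoP. Here cMoP was lowest and GMP-MoP and proNeu2 the highest. The region shared by H2ac6 and H2bc4 had means of 74.6 CPM in GMP-MoP, 71.6 CPM in proNeu2, 73.2 CPM in proNeu1 and 75.2 CPM in cMoP, the most even of the histone regions. The median strong histone region had 55.9 CPM in GMP-MoP, 66.7 in proNeu2, 62.4 in proNeu1 and 55.5 in cMoP.

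Outside histone genes, few strong regions of dense DNA were level. The strongest, named after their values were seen, were at Tomm40, the mitochondrial import pore (chr7:19715058-19716438), with 184 and 160.3 CPM in GMP-MoP, 169.7 and 180.2 CPM in proNeu2, 164 and 198 CPM in proNeu1 and 140.5 and 151 CPM in cMoP, and at Pa2g4, a proliferation-associated protein (chr10:128565513-128566842), with 137 and 121 CPM in GMP-MoP, 135 and 134 CPM in proNeu2, 133 and 144 CPM in proNeu1 and 126 and 115 CPM in cMoP. At both of them cMoP tended to be lowest, and at Tomm40 it did not overlap the other groups.

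Regions at genes of the general cell machinery were level at shares on both sides of that of all linked regions. Regions were linked to the nearest protein-coding gene within 50 kb, which reached 2147 of the level regions (98.0%) and 2355 genes, and 20 lists of genes were counted. Of all 6805 linked strong regions 2147 (31.6%) were level, and this is the share beside which each list stands. No test was made of any list. The lists also differed in gene density. The median gene number in the 1 Mb window was 13 over all linked strong regions. Among the lists that follow here it ran from 10 at tRNA synthetase genes to 20 at ribosomal protein genes and at chromatin regulators. The part of gene density in the list shares was not tested. At ribosomal protein genes 17 of 48 strong regions were level (35.4%), at mitochondrial ribosome genes 13 of 41 (31.7%), at genes of translation initiation and elongation 16 of 50 (32.0%), at respiratory chain and ATP synthase genes 18 of 51 (35.3%) and at tRNA synthetase genes 11 of 27 (40.7%). Lower shares stood at genes of RNA polymerases and the mediator (14 of 52, 26.9%), ubiquitin ligation (25 of 101, 24.8%), chromatin regulators (11 of 47, 23.4%), the proteasome (7 of 31, 22.6%) and the spliceosome (16 of 77, 20.8%). Of 20 strong regions at genes often used as housekeeping references 7 were level (35.0%).

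**Figure D5:**
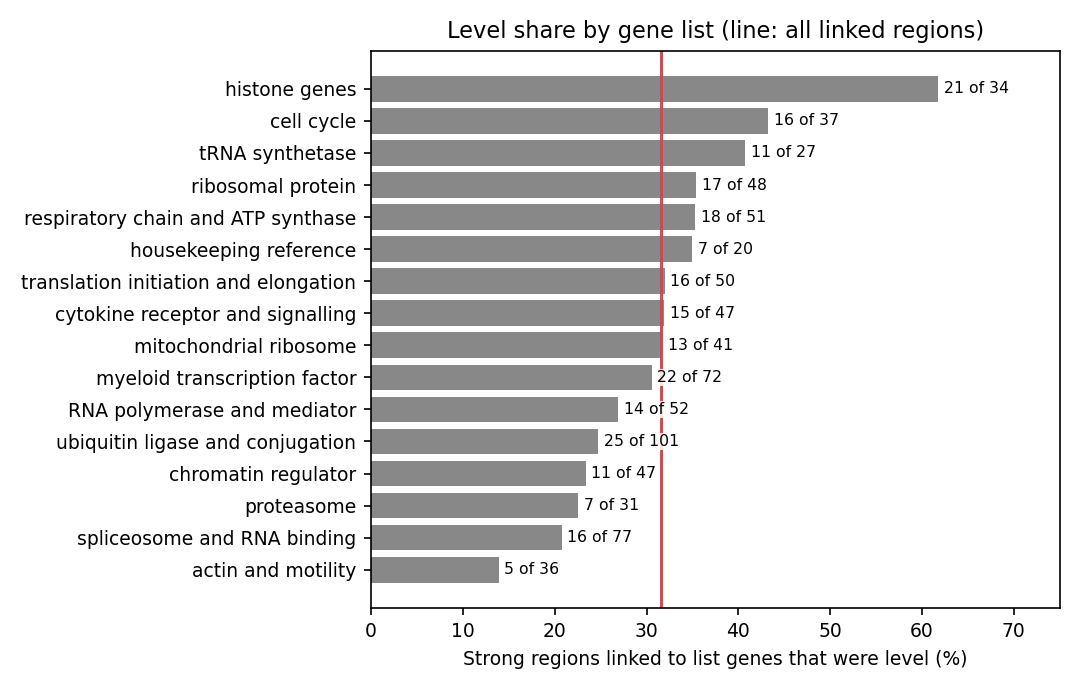
Percent of strong regions linked to the genes of each list that were level (bars, from 0), with the count printed at the bar, for the 16 lists with at least 20 strong regions. The red line is the share over all linked strong regions, 31.6%; histone genes stand above it at 61.8% and actin and motility genes below it at 13.9%.

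Single regions of the machinery lists illustrate the levels. Rpl37, a protein of the large ribosomal subunit, had 119 and 103 CPM in GMP-MoP, 98.5 and 106 CPM in proNeu2, 119 and 120.2 CPM in proNeu1 and 93.8 and 106 CPM in cMoP at chr15:5115880-5117106, with proNeu1 highest. Eef1a1, the elongation factor that brings aminoacyl-tRNA to the ribosome, had 124 and 101 CPM in GMP-MoP, 116 and 111 CPM in proNeu2, 106 and 128 CPM in proNeu1 and 103 and 97.5 CPM in cMoP at chr9:78480739-78482509. Its proNeu2 and proNeu1 libraries were above cMoP and overlapped GMP-MoP.

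Eif2ak3, the endoplasmic reticulum stress kinase PERK, had 132 and 129 CPM in GMP-MoP, 134 and 127 CPM in proNeu2, 139 and 128 CPM in proNeu1 and 120.03 and 119 CPM in cMoP at chr6:70843723-70844995, and Gtf2a1, a subunit of the general factor TFIIA, had 145 and 119 CPM in GMP-MoP, 143 and 142 CPM in proNeu2, 142 and 141 CPM in proNeu1 and 122 and 109.7 CPM in cMoP at chr12:91589494-91590732. These are the regions with 6 CCAAT motifs and with none of the 3 motifs in the windows above, and both had cMoP below the proNeu groups. The start of Atp5j, a subunit of ATP synthase, faces that of Gabpa, an ETS factor subunit, in a single region (chr16:84834408-84835851) with 123 and 145 CPM in GMP-MoP, 120.4 and 131 CPM in proNeu2, 147 and 105 CPM in proNeu1 and 135 and 116 CPM in cMoP. All its groups overlapped.

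Psmc6, an ATPase of the proteasome cap, had 77.1 and 76.9 CPM in GMP-MoP, 77.3 and 93.8 CPM in proNeu2, 86.4 and 85.2 CPM in proNeu1 and 82.3 and 76.97 CPM in cMoP at chr14:45329221-45330294. Pgk1, a glycolytic enzyme gene on chromosome X, had 71.3 and 87.4 CPM in GMP-MoP, 68.9 and 83.99 CPM in proNeu2, 81.1 and 78.9 CPM in proNeu1 and 83.3 and 76.97 CPM in cMoP at chrX:106186491-106188279, and all groups overlapped. Hprt, the purine salvage enzyme and also X-linked, had 38.9 and 43.7 CPM in GMP-MoP, 36.4 and 39.2 CPM in proNeu2, 38.3 and 36.3 CPM in proNeu1 and 48.7 and 33.7 CPM in cMoP.

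Cell cycle genes had 16 level regions among 37 strong ones (43.2%). They included Cdk1, the mitotic kinase, with 69.1 and 58.3 CPM in GMP-MoP, 63.8 and 67.4 CPM in proNeu2, 71.2 and 64.9 CPM in proNeu1 and 64.5 and 64.8 CPM in cMoP, and Cdk4, the G1 kinase, with 77.8 and 70.5 CPM in GMP-MoP, 83.99 and 71.7 CPM in proNeu2, 69.3 and 71.9 CPM in proNeu1 and 74.4 and 73.3 CPM in cMoP, both named after their values were seen. At these 2 regions the groups nearly all overlapped. Regions of the replicative helicase were level at Mcm3, Mcm4, Mcm5 and Mcm6, and Mcm3 had means of 52.4 CPM in GMP-MoP, 51.1 CPM in proNeu2, 52.2 CPM in proNeu1 and 54.9 CPM in cMoP. Pcna, the sliding clamp of DNA replication, had 106 and 101 CPM in GMP-MoP, 134 and 123 CPM in proNeu2, 129 and 123 CPM in proNeu1 and 109.5 and 96.5 CPM in cMoP, with both proNeu groups above GMP-MoP and cMoP. It was close to the ratio limit.

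Genes of the actin cytoskeleton and cell motility had the lowest share, with 5 of 36 strong regions level (13.9%), and the median log2 ratio of proNeu2 over cMoP over the 36 was 0.66. The median gene number in the window of these 36 was 22, against 13 over all linked strong regions, and its part in the low share was not tested. Of the 5 level regions, those at Elmo1 and Myo1g held a start site. The start of Wasf2, an activator of the Arp2/3 complex, had 48.97 and 33.8 CPM in GMP-MoP, 68.3 and 69.3 CPM in proNeu2, 65.3 and 64.2 CPM in proNeu1 and 34.6 and 35.3 CPM in cMoP and was over the limit, with proNeu2 and proNeu1 above the rest. A second region inside the gene, level by the rule (chr4:133169195-133170834), had 34.6 and 32.6 CPM in GMP-MoP, 40.9 and 42.9 CPM in proNeu2, 40.9 and 33.1 CPM in proNeu1 and 46.1 and 30.05 CPM in cMoP. The start of Msn, which links actin to the membrane, was over the limit with 46.8 and 54.2 CPM in GMP-MoP, 43.7 and 39.8 CPM in proNeu2, 36.3 and 39.4 CPM in proNeu1 and 66.6 and 63.8 CPM in cMoP, highest in cMoP and lowest in proNeu1. An intragenic Msn region (chrX:96130019-96131384) was level, with 44.7 and 45.5 CPM in GMP-MoP, 33.6 and 45.4 CPM in proNeu2, 38.3 and 44.5 CPM in proNeu1 and 50.3 and 37.4 CPM in cMoP. Elmo1, an adaptor for Rac activation, was level at a start site, with 48.3 and 41.96 CPM in GMP-MoP, 48.2 and 39.8 CPM in proNeu2, 54.1 and 43.3 CPM in proNeu1 and 53.5 and 45.3 CPM in cMoP and all groups overlapping.

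At genes of myeloid factors and of cytokine signalling the shares were close to the 31.6% of all linked regions. Of 72 strong regions at myeloid transcription factor genes 22 were level (30.6%), of 47 at cytokine receptor and signalling genes 15 (31.9%), of 11 at stem and early progenitor genes 4 and of 6 at monocyte and macrophage genes 1. Of 5 at neutrophil granule and maturation genes 1 was level. Bach1, a repressor of heme oxygenase and other genes, had 146 and 103 CPM in GMP-MoP, 125 and 126 CPM in proNeu2, 129.95 and 114 CPM in proNeu1 and 111 and 118 CPM in cMoP at chr16:87698322-87700318, and Etv6, an ETS repressor, had 116 and 97.3 CPM in GMP-MoP, 86.8 and 96.9 CPM in proNeu2, 101 and 116 CPM in proNeu1 and 92.8 and 97.00 CPM in cMoP at chr6:134034661-134036384.

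Cebpa and Spi1, factors of myeloid fate named here after their values were seen, had level regions. Cebpa, which drives the granulocyte and monocyte lineage, had 97.9 and 71.1 CPM in GMP-MoP, 68.9 and 85.2 CPM in proNeu2, 79.8 and 90.97 CPM in proNeu1 and 80.2 and 78.5 CPM in cMoP at chr7:35118582-35119828, and all groups overlapped. Spi1, the gene of PU.1, was level in a region inside the gene and 244 bp from its nearer end (chr2:91082618-91083587) with 43.9 and 39.05 CPM in GMP-MoP, 43.7 and 44.1 CPM in proNeu2, 39.6 and 47.7 CPM in proNeu1 and 43.5 and 40.1 CPM in cMoP. A second strong Spi1 region, inside the gene (chr2:91096127-91097228), was over the limit with 34.6 and 34.97 CPM in GMP-MoP, 51.5 and 47.2 CPM in proNeu2, 42.9 and 33.7 CPM in proNeu1 and 30.9 and 34.8 CPM in cMoP. Its proNeu2 libraries were above all others.

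A gene can thus hold level and unequal regions at once. Of the 2355 genes with a level region, 280 (11.9%) also had a strong region over the limit, and 96 had 2 or 3 level ones. Ikzf1, the lymphoid and myeloid factor Ikaros, had level regions over its start with 63.4 and 71.7 CPM in GMP-MoP, 68.9 and 78.5 CPM in proNeu2, 63.3 and 69.97 CPM in proNeu1 and 67.6 and 61.2 CPM in cMoP and in its body with 61.2 and 62.4 CPM in GMP-MoP, 70.6 and 75.4 CPM in proNeu2, 56.7 and 73.8 CPM in proNeu1 and 55.04 and 64.3 CPM in cMoP. A further region, at chr11:11762960-11764028, had 52.6 and 61.2 CPM in GMP-MoP, 44.2 and 41.7 CPM in proNeu2, 43.5 and 40.7 CPM in proNeu1 and 50.8 and 59.04 CPM in cMoP and was over the limit, with GMP-MoP and cMoP above the proNeu groups. Fli1, an ETS factor, was level in its body at chr9:32538972-32540726 with 61.9 and 74.01 CPM in GMP-MoP, 62.7 and 62.5 CPM in proNeu2, 66.6 and 64.2 CPM in proNeu1 and 65.5 and 65.4 CPM in cMoP, and over the limit at chr9:32508271-32510455 with 85.7 and 70.5 CPM in GMP-MoP, 62.2 and 74.2 CPM in proNeu2, 59.4 and 64.9 CPM in proNeu1 and 89.6 and 80.1 CPM in cMoP.

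Among genes of the lineage lists, single regions were level at modest signal. Cd68, a lysosomal glycoprotein of macrophages, had 35.3 and 36.1 CPM in GMP-MoP, 36.4 and 41.7 CPM in proNeu2, 29.7 and 36.9 CPM in proNeu1 and 44.6 and 35.8 CPM in cMoP at its start (chr11:69665690-69666733), which lies among 59 genes. Csf3r, the G-CSF receptor, had 35.3 and 34.97 CPM in GMP-MoP, 31.4 and 40.5 CPM in proNeu2, 36.3 and 35.6 CPM in proNeu1 and 31.97 and 34.8 CPM in cMoP in a region 3828 bp from the gene (chr4:126017485-126019613). Both were close to the floor, and their groups overlapped except for small gaps.

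Il3ra, the alpha chain of the interleukin 3 receptor, had 127 and 126 CPM in GMP-MoP, 120.4 and 112 CPM in proNeu2, 144 and 105 CPM in proNeu1 and 126 and 109.7 CPM in cMoP at chr14:14345216-14346850. Of its groups, GMP-MoP and proNeu2 did not overlap. Of 4 strong regions linked to markers of lymphoid, erythroid, mast and dendritic cells 2 were level. The one linked to Xcr1, a chemokine receptor of dendritic cells, lies over the start of Fyco1, a different gene, and the other lies 16407 bp from Batf3. Neither is at the promoter of its marker.

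Level regions without a start site in the RefSeq set used here numbered 587, chromosome 18 left out. A region can lie over a gene end, as those at Ripk2, Usp1 and Myc do, and hold no start of this set. Some of the 587 may therefore be promoters. The strongest of them, named after their values were seen, were still mostly at gene ends. They were the Ripk2 region given above, Usp1, which deubiquitinates PCNA, with 181 and 179 CPM in GMP-MoP, 193 and 196 CPM in proNeu2, 206 and 186 CPM in proNeu1 and 148 and 175 CPM in cMoP, and the Chchd7 and Plag1 region. Cpeb2, a regulator of mRNA polyadenylation, had 177 and 179 CPM in GMP-MoP, 153 and 139 CPM in proNeu2, 181 and 156 CPM in proNeu1 and 169 and 162 CPM in cMoP at chr5:43232412-43234221, inside the gene and 7063 bp from an end, with proNeu2 below the other groups. On chromosome X a region at chrX:75673569-75674893, with no protein-coding gene within 50 kb, had 159 and 162 CPM in GMP-MoP, 163 and 150.2 CPM in proNeu2, 177 and 151 CPM in proNeu1 and 147 and 144 CPM in cMoP. Myc, the proliferation factor, had 51.9 and 62.9 CPM in GMP-MoP, 45.9 and 52.1 CPM in proNeu2, 46.8 and 62.98 CPM in proNeu1 and 63.9 and 45.9 CPM in cMoP at chr15:61984772-61985943, and its groups overlapped.

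Widths spread from 516 to 4202 bp. The widest level region lay 15021 bp from Kcnip1 (chr11:34008369-34012570) and had 69.1 and 63.5 CPM in GMP-MoP, 77.8 and 79.7 CPM in proNeu2, 60.03 and 80.8 CPM in proNeu1 and 73.9 and 55.4 CPM in cMoP, with proNeu2 above GMP-MoP and cMoP. The narrowest held a start of Arrdc3, an arrestin-like adaptor (chr13:80883030-80883545), and had 55.5 and 55.4 CPM in GMP-MoP, 59.4 and 47.2 CPM in proNeu2, 54.8 and 54.7 CPM in proNeu1 and 49.3 and 47.4 CPM in cMoP. Plxnc1, a semaphorin receptor, was also among the widest, with 63.4 and 53.03 CPM in GMP-MoP, 73.4 and 70.5 CPM in proNeu2, 68.6 and 66.8 CPM in proNeu1 and 68.1 and 63.8 CPM in cMoP over 2976 bp.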

How the data were processed

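ATAC-seq of 8 libraries was counted by the authors over 61196 shared mm10 regions, and the deposited values are raw counts. Bowtie2 2.3.5.1, HOMER 4.11, edgeR 3.32.1 and mm10 are named by the submitters' processing notes, with no role given. Tn5 shift, duplicate filters and region calling were not given in the sources used here.

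CPM, ratios, 95% counting intervals of the ratios and exact binomial intervals of shares were computed in Python 3.11.15 (pandas 2.3.3, scipy 1.17.1). The intervals of the ratios cover counting error only, as PCR reads are not independent molecules. Those of shares take regions as independent. Genes and starts came from RefSeq on GRCm38.p6, the same assembly, and coordinates are 1-based. The test was the edgeR 4.0.16 quasi-likelihood F test (R 4.3.3; TMM, filterByExpr with a minimum count of 10, 1 mean per group) with Benjamini-Hochberg adjustment, tested on simulated data. DESeq2 1.42.0 was an alternative.

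Members and gene lists were chosen with earlier results of these data known. Regions were named by rank: the 8 of highest mean, the 6 lowest ratios, those next to each threshold, the first 3 by mean per list, and extremes of replicate difference and width. H2ac6, the Mcm genes, Cdk1, Cdk4, Hprt, Wasf2, Myo1g, the Msn start, Cebpa, Spi1, Ikzf1, Fli1, Myc and the strongest regions without a start or in dense windows were chosen after their values were seen. Some named regions are not reported here. Same-numbered libraries did not deviate together (correlations between -0.105 and 0.107 over 6937 strong regions), so numbers were not used as pairs.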

Additional observations from a re-analysis of the deposited data

How the results depend on the processing

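Of the 2191 level regions and the values over them, several moved with the settings. TMM scaling gave 1445 level regions, with 73.3% at gene ends, a median replicate difference of 0.172, and level shares of 37.3% in windows of 5 or fewer genes and 8.05% in windows of over 30 (15.4% as reported). DESeq2 size factors gave 0.171 for the replicate difference and 9.30% for windows of over 30 genes. Floors of 20 and 40 CPM gave 69.95 and 81.6% at gene ends, median widths of 1336 and 1370 bp, replicate differences of 0.178 and 0.153, and shares of 34.1 and 49.5% in windows of 5 or fewer genes. A limit of 15% gave 831 regions, 78.6% at gene ends, and shares of 16.3 and 5.31% in the sparse and dense windows. A limit of 50% gave 4791 regions, a replicate difference of 0.171, and shares of 82.8 and 45.7%. Gene end windows of 500 bp and 2 kb gave 74.3 and 78.8%, and a threshold per kb of width a median width of 1312 bp. The share in sparse windows was above that in dense windows under both scalings, both floors, both limits and with each library left out. The density shares, the summed proNeu2 libraries and the omission of histone regions were chosen after seeing the data.

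Level regions called for any difference were 131 as reported, 8 with total counts, 346 with no filter on low counts and 6 with the DESeq2 likelihood ratio test. Calls over all tested regions were, in the same order, 24904 and 24490 of 47506, and 28831 and 12845 of 61187. With the replicate block 200 level regions and 25288 of all regions were called, and 149 and 25831 with the proNeu2 libraries summed. Leaving out each library in turn gave 1836 to 2229 level regions, 76.3 to 77.9% at gene ends, median widths of 1339 to 1362 bp, replicate differences of 0.157 to 0.167, shares of 34.4 to 42.3% and 12.2 to 15.9% in sparse and dense windows, and 22335 to 26911 calls in all. Level regions called then ran from 70 to 324: 324 without GMP-MoP replicate 1, 263 without GMP-MoP replicate 2, 229 without proNeu1 replicate 2, 213 without cMoP replicate 1 and 70 without cMoP replicate 2. The cause of these shifts was not tested.

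With 2 libraries per group and 31 to 578 counts per level region and library, the median counting interval of the ratio ran from 0.955 to 1.43, and membership of single regions near the limit is uncertain. Whole library depth was not given in the sources used here.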
